A study of Mus musculus with 112 samples.

Results

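DNA methylation (DNAme) was compared in F0 sperm between unexposed Nrf2-/- males and unexposed WT males. This asks how the sperm methylome differed between the genotypes when no cigarette smoke (CS) was given. The groups were chosen by their labels, control Nrf2-/- sperm (n = 10) and control WT sperm (n = 10), and they make up 20 of the 112 libraries and 2 of the 13 groups of the series. All were adult males of the inbred C57BL/6J background, age matched, and none was placed in the smoking chamber. WT and Nrf2-/- males were separate stocks of the same supplier, so stock and genotype cannot be told apart. The Nrf2-/- males carried the targeted Nfe2l2 gene on both chromosomes in every cell. Sperm came from the cauda epididymis and vas deferens after lysis of somatic cells. Nrf2-/- and WT males that had been exposed to CS (n = 9 each) give the same genotype contrast in other animals. Prefrontal cortex of sons of unexposed sires (n = 8 each) gives it in the next generation, and sons of smoked WT and smoked Nrf2-/- sires (n = 8 each) are set beside them. The fit of sperm also takes in 3 WT groups left to recover for increasing times after CS (n = 9, 10 and 10). One of the 8 samples from sons of control WT sires is labelled with the Nrf2-/- strain although its title names a WT sire, and its column could not be picked out. All of those sons had CAST/EiJ mothers, and sons of Nrf2-/- sires inherit a single targeted allele by that cross. Each library was counted as 1 sample; the labels do not give litters, so the p-values measure the spread between these libraries only.

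NRF2 is a transcription factor that the adaptor protein KEAP1 normally holds for degradation. Oxidants and electrophiles release it, and it then binds antioxidant response elements and raises genes for glutathione synthesis, thioredoxin cycling and detoxification. Male germ cells lay down most of their DNAme before birth and keep CpG-rich promoters free of it, so that mature sperm are methylated nearly everywhere else, with low levels at maternally imprinted promoters. Reduced representation bisulfite sequencing (RRBS) reads CpG-rich restriction fragments. In bisulfite-treated DNA an unmethylated cytosine is read as thymine, so a percentage from RRBS does not separate an unmethylated cytosine from a thymine present in the animal's own DNA. No DNA sequence of the animals was analysed here.

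The sequences in which the genotypes differed are shown first, because the changes took different forms. They are reference sequence of mm10 (GRCm38), plus strand, 5′ to 3′. In the Nfe2l2 sequence (chr2:75676209-75676369, coding exon of a gene that lies on the minus strand) capitals mark the 4 of 7 CpGs with a value in every control WT and no control Nrf2-/- library. In the others capitals mark each CpG whose DNAme differed by over 5 points in the direction of its region. Crhbp (chr13:95451312-95451428) and Aggf1 (chr13:95409511-95409626) stand for regions that changed at a single CpG. Iqgap2 (chr13:95818469-95818611), Osbpl3 (chr6:50323081-50323163), Mrto4 (chr4:139334703-139334813) and Cacng4 (chr11:107849805-107849920) stand for regions that changed at every CpG with a value.
Nfe2l2: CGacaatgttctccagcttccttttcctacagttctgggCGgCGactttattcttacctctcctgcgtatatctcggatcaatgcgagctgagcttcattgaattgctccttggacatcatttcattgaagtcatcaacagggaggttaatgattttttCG
Crhbp: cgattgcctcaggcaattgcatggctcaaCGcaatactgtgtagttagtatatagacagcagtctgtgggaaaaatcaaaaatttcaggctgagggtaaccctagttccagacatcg
Aggf1: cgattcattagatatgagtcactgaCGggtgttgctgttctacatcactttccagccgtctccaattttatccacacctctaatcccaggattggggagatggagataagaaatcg
Iqgap2: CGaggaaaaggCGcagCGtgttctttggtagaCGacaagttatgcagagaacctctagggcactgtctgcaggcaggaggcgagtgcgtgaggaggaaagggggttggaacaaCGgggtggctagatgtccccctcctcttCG
Osbpl3: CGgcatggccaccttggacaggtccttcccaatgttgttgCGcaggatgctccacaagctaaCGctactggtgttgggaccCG
Mrto4: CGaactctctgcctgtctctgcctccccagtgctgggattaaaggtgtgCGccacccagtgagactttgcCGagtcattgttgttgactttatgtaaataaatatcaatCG
Cacng4: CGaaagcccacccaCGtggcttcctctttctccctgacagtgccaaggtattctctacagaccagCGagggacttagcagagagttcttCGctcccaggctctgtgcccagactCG

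The targeted gene was examined before the rest. Nfe2l2, which encodes NRF2, lies at chr2:75675513-75704641 on the minus strand. Within the gene and 1000 bp on either side, 35 cytosines had a value in at least 8 libraries of either group. Of these, 4 had no value in any control Nrf2-/- library, and all 4 lay in the coding sequence shown above. In control WT sperm their mean DNAme ran from 91.1% to 95.9%, with a value in all 10 libraries. The labels of all 10 Nrf2-/- libraries thus held at the gene. Around the absent stretch, 27 cytosines had a value in at least 8 libraries of both groups. Of these, 18 were under 5% in both genotypes and lay at the 5′ end of the gene. Those farther along the gene body were high in both, with means up to 95.8% in control WT and 98.7% in control Nrf2-/- sperm. The region upstream of the start (chr2:75705076-75705202, 14 cytosines) was at 0.696% ± 0.415 (SD, n = 10) in control WT and 0.615% ± 0.404 (SD, n = 10) in control Nrf2-/- sperm. It was not called (adjusted p = 0.984, limma, where called means an adjusted p below 0.05).

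The sperm label was checked at imprinted loci. Maternally methylated promoters are unmethylated in sperm and carry DNAme on 1 parental copy in somatic cells. In 20 such regions of 14 genes that were at 15 to 85% in F1 brain of control WT sires, every group mean was under 5% in both genotypes, with a median of 0.820% in control WT and 0.855% in control Nrf2-/- sperm against 28.8% in brain. Peg3, a paternally expressed zinc-finger gene, was at 0.790% ± 1.00 (SD, n = 10) and 0.753% ± 0.836 (SD, n = 10). Meg3, a non-coding RNA gene methylated on the paternal copy, was at 86.9% ± 4.41 (SD, n = 10) and 89.3% ± 8.10 (SD, n = 10), against 24.4% in brain. The other 6 regions at starts of paternally methylated genes were under 5% in both genotypes, among them H19, at 0.948% and 0.858% in sperm and 21.4% in brain. Those at Dlk1, Rasgrf1 and Zdbf2 were low in brain too (0.746% to 2.65%), so they cannot check the sperm label. The 20 maternally methylated promoter regions, which somatic DNA would raise, were thus near 0 in both genotypes. Of all 24 regions at starts of the listed genes, 23 were under 5% in both genotypes and 1, at Slc38a4, was over 80% in both.

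Mean DNAme over the whole assay differed between the genotypes by less than the spread of libraries. Over 1023708 cytosines scored in all 7 F0 sperm groups, the mean ran from 33.02% to 40.8% (median 36.04%) in control WT and from 35.0% to 40.4% (median 36.6%) in control Nrf2-/- sperm. The ranges overlapped nearly in full, and the difference of 0.781 points did not pass (p = 0.385, two-sided permutation test, n = 10 each). Over the 436641 cytosines with a value in all 20 libraries the means were 47.7% ± 0.880 (SD, n = 10) and 47.7% ± 0.369 (SD, n = 10), 0.0114 points apart (p = 0.975, permutation test). Control WT libraries had values at 800578 to 1673284 positions and control Nrf2-/- libraries at 966374 to 1718943, and the files give no read counts, so the depth behind a percentage is unknown. The spread among libraries of a genotype was measured as well. The mean distance of a library from the median of its own group, per region, was 2.22 points ± 0.358 (SD, n = 10) in control WT and 2.39 points ± 0.354 (SD, n = 10) in control Nrf2-/- sperm (p = 0.308, permutation test).

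Regional differences were tested over 62831 regions, each a run of at least 3 cytosines no more than 100 bp apart. The test (limma over all 67 F0 sperm libraries, Benjamini-Hochberg adjustment) called 235 regions, 0.374% of those tested. Of these, 171 were lower in Nrf2-/- sperm (0.272%) and 64 were higher (0.102%). The median difference was -11.8 points among the lower and 9.07 points among the higher. In 28 called regions, all of them lower, the median cytosine changed by under 5 points and another by over 30. In 89 every cytosine changed by over 5 points the same way, 67 lower and 22 higher. At an unadjusted p below 0.05 there were 4919 regions. A fit of the control pair alone called 105 regions, 98 of them among the 235, and joining cytosines up to 300 bp apart gave 366. A rule of size alone asked for at least 33.3% of cytosines changed by over 5 points, in either direction, and a mean change of over 5 points. It gave 3205 regions (5.10%), and 187 of the called regions met it. The 3205 became 715 at over 10 points, 1348 with at least 8 libraries in every group and 7235 with joining up to 300 bp. The 10 values of a genotype did not overlap those of the other in 47 of the called regions, 36 lower and 11 higher. Over all regions this held for 64 (0.102%), counting groups with missing libraries. Cytosine by cytosine, 718 of 975622 were called (0.0736%), 526 lower and 192 higher. WT libraries carry facility numbers 21 to 66 and Nrf2-/- libraries 1 to 17, and what these numbers mark is not stated, so the run of numbers and the genotype cannot be told apart.

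The changed regions lay mostly away from promoters. Regions within 1000 bp of a gene start were 38.7% of those tested and 10.2% of those called, 24 of 24327 (0.0987%). Between genes, 111 of 15833 were called (0.701%), in introns 62 of 14828 (0.418%) and in exons 38 of 7843 (0.485%). By the level in the other WT groups, regions at 50 to 75% were called most often, 55 of 2001 (2.75%), against 64 of 35221 (0.182%) of those under 25%. Regions at that level made up 3.18% of those tested and 23.4% of those called. The lower regions had a mean of 25.9% of their bases in soft-masked repeats, the higher ones 13.1% and all regions 11.4%.

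By chromosome the calls were uneven, as the plot of calls by chromosome shows. Chromosome 13 had 34 called regions (1.26% of those tested there), chromosome 6 had 25 (0.824%), chromosome 2 had 32 (0.660%) and chromosome 12 had 15 (0.578%). Chromosomes 2, 6 and 13 together held 91 of the 235 calls on 10581 regions (0.860%), and the rest of the genome 144 on 52250 (0.276%). Of the 28 lower regions that changed mainly at 1 cytosine, 11 lay on chromosome 2, 7 on chromosome 6 and 7 on chromosome 13. Nfe2l2 itself lies on chromosome 2. In 5-Mb windows the highest numbers of calls were 7 of 157 regions at 95 to 100 Mb of chromosome 13 (4.46%) and 7 of 204 at 50 to 55 Mb of chromosome 6 (3.43%). The regions of Crhbp, Aggf1 and Iqgap2 share the first of these windows, and those of Osbpl3 and Creb5 the second. Among windows with at least 4 calls, the shares were larger than both at 85 to 90 Mb of chromosome 13 (4 of 31, 12.9%), at 5 to 10 Mb of chromosome 6 (6 of 75) and at 80 to 85 Mb of chromosome 13 (4 of 62, 6.45%).

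**Figure D1:**
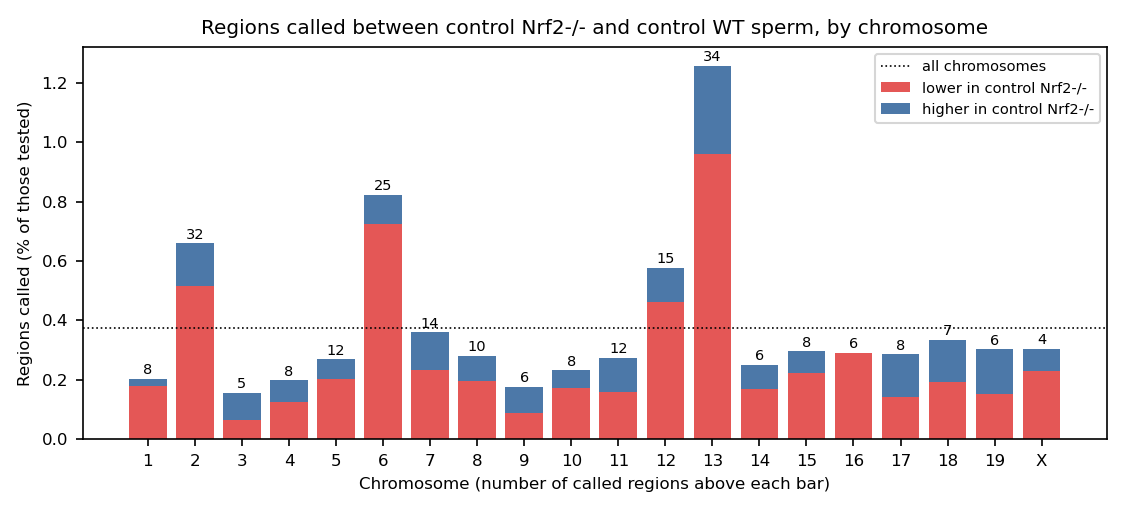
Percent of tested regions called between control Nrf2-/- and control WT sperm on each autosome and X, split into lower (red) and higher (blue), with the number called above each bar and the share over all chromosomes (0.374%) as a dotted line. Chromosome 13 stands highest at 1.26% (34 regions), followed by chromosomes 6 (25), 2 (32) and 12 (15); chromosome Y, with 1 call among 46 regions, is left out.

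Of the named lower regions, the 3 with the smallest adjusted p (Crhbp, Aggf1 and Creb5) changed at a single cytosine. Near Crhbp, which encodes a binding protein for corticotropin-releasing hormone, the region 6388 bp from the gene's start ran from 96.6% to 98.8% (median 97.7%) in control WT and from 62.4% to 65.6% (median 64.4%) in control Nrf2-/- sperm. No value of either group came near the other, and the difference was -33.5 points (SE 0.522, adjusted p = 2.90e-54, limma). Nearly all of it came from the middle of 3 cytosines. That cytosine, capital in the sequence above, was at 94.3% to 100% in control WT and at 0% to 0.617% in control Nrf2-/- sperm, while the cytosines on either side of it differed by -2.45 and -0.282 points. Near Aggf1, which encodes an angiogenic factor, the region ran from 93.1% to 98.2% (median 95.5%) and from 60.8% to 65.5% (median 63.1%), again with 1 of 3 cytosines changed, by -96.3 points. In an intron of Creb5, a CREB-family transcription factor gene, 1 of 3 cytosines fell by 91.3 points, and the region (chr6:53308736-53308831) went from 95.8% ± 1.79 (SD, n = 10) to 63.9% ± 3.66 (SD, n = 10). The region assigned to Sem1, a proteasome subunit gene on chromosome 6, and an intronic region of Myo3b, an unconventional myosin gene on chromosome 2, each also held a single such cytosine, which fell by 87.9 and 97.1 points. In an alternative added with the data known, such cytosines were left out. The Myo3b region was no longer called (adjusted p = 0.853, limma), and the regions of Crhbp, Aggf1, Creb5 and Sem1 kept too few cytosines to be scored.

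**Figure D2:**
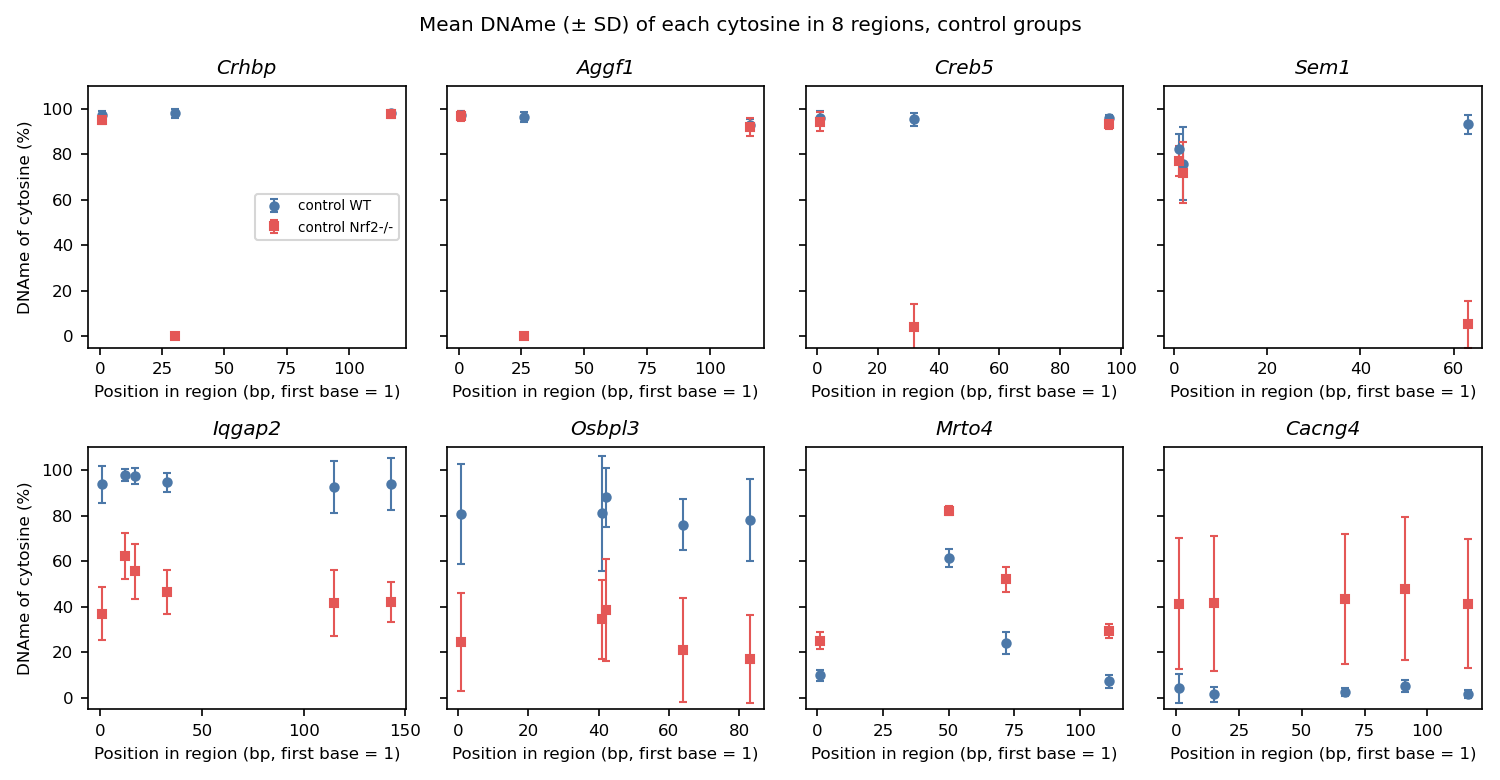
Mean DNAme (%) with SD of each cytosine in 8 called regions, in control WT (blue circles, n up to 10) and control Nrf2-/- sperm (red squares, n up to 10), against the position in the region in bp. In the upper row (Crhbp, Aggf1, Creb5, Sem1) 1 cytosine lies near 0% in Nrf2-/- sperm while its neighbours differ from WT far less; in the lower row (Iqgap2, Osbpl3, Mrto4, Cacng4) all cytosines are shifted.

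In other lower regions every cytosine moved. The Iqgap2 region lies in an intron of this gene for a cytoskeletal scaffold protein. It ran from 85.5% to 98.7% (median 96.9%) in control WT and from 36.2% to 61.3% (median 47.6%) in control Nrf2-/- sperm. The groups did not overlap, and the difference was -47.6 points (SE 2.27, adjusted p = 3.74e-26, limma), with each of its 6 cytosines lower by 35.5 to 56.98 points. The Osbpl3 region lies in the coding sequence of an oxysterol-binding protein gene and had the largest difference of all regions tested, -54.6 points (SE 6.04, adjusted p = 4.96e-09, limma). Control WT libraries ran from 68.99% to 91.0% (median 84.7%, n = 8) and control Nrf2-/- libraries from 5.00% to 65.5% (median 23.2%, n = 9). The upper end of the Nrf2-/- range was a single library, library 10 by the order of the group's columns in the deposited table, and the next was at 32.9%. In the coding sequence of Pla2r1, a secretory phospholipase A2 receptor gene (chr2:60497571-60497698), DNAme was 30.04% ± 5.09 (SD, n = 10) and 3.63% ± 2.97 (SD, n = 10), so this region was nearly free of DNAme in Nrf2-/- sperm. The region assigned to Cox7c, a cytochrome c oxidase subunit gene, lies 1355715 bp from that gene's start (chr13:87402619-87402722). It went from 77.5% ± 4.02 (SD, n = 10) to 53.6% ± 6.09 (SD, n = 10), with each of 4 cytosines lower.

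Smaller lower regions completed the named ones. For a region of 13 cytosines on chromosome 13 (chr13:96989523-96989782), the nearest protein-coding start was that of 1700029F12Rik. The region was at 12.7% ± 2.89 (SD, n = 10) in control WT and 2.51% ± 1.02 (SD, n = 10) in control Nrf2-/- sperm. Of its cytosines, 11 were lower by over 5 points. In an intron of the RNA gene 2310067P03Rik, 373065 bp from the start of Mef2c, a transcription factor gene of muscle and neurons, DNAme went from 76.8% ± 2.63 (SD, n = 10) to 64.9% ± 2.15 (SD, n = 10). Dlk1, an imprinted gene for a Notch-ligand-like protein expressed from the paternal copy, had a called region in its coding sequence (chr12:109459811-109459902). Control WT libraries there ran from 17.8% to 27.4% (median 23.2%) and control Nrf2-/- libraries from 7.24% to 14.3% (median 12.3%), with no overlap. The difference was -10.9 points (SE 1.22, adjusted p = 2.77e-09, limma), and 7 of 8 cytosines were lower by over 5 points. At the start of Dlk1 both genotypes were near 0, at 0.7099% and 0.447%.

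Among the higher regions the smallest adjusted p belonged to Mrto4, a ribosome assembly factor gene whose start is 17485 bp away. Control WT libraries ran from 22.3% to 29.1% (median 25.3%) and control Nrf2-/- libraries from 44.9% to 49.6% (median 47.6%). The groups were far apart for their narrow spread, and the difference was 21.6 points (SE 1.19, adjusted p = 7.45e-23, limma), with each of 4 cytosines higher by 15.3 to 27.9 points. Near Dmrt1, which encodes a transcription factor of testis and germ cells (chr19:25481204-25481261), DNAme went from 69.7% to 84.3% (median 79.0%) in control WT to 90.01% to 97.4% (median 93.4%) in control Nrf2-/- sperm, again with no overlap. In the coding sequence of 4932414N04Rik on chromosome 2 it went from 56.5% ± 3.37 (SD, n = 10) to 77.3% ± 5.88 (SD, n = 10). The intronic region of Slc4a4, a sodium bicarbonate cotransporter gene, went from 49.8% ± 4.55 (SD, n = 10) to 62.6% ± 2.58 (SD, n = 10), with all 5 cytosines higher. The intronic region of Enpp6, a choline phosphodiesterase gene, went from 12.7% ± 2.61 (SD, n = 10) to 22.3% ± 4.25 (SD, n = 10). Except near Dmrt1, these gains left the region at a partial level in both genotypes.

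The Cav1 and Cacng4 regions were higher in most but not all Nrf2-/- libraries. In an intron of Cav1, the gene of the membrane protein caveolin, control WT libraries ran from 5.35% to 12.03% (median 8.67%) and control Nrf2-/- libraries from 10.8% to 40.98% (median 34.7%), a difference of 22.3 points (SE 2.56, adjusted p = 4.98e-09, limma). Libraries 6 and 10 of the Nrf2-/- group, numbered in the same way, were lowest at 10.8% and 19.2%. Upstream of Cacng4, which encodes an auxiliary subunit of calcium channels and AMPA receptors, control WT libraries ran from 0.345% to 6.72% (median 2.43%). The Nrf2-/- libraries were spread from 0% to 75.7% (median 45.3%), a difference of 40.2 points (SE 6.43, adjusted p = 5.22e-05, limma). Libraries 1 to 5 were at 54.5% to 75.7%, libraries 6, 7 and 9 at 36.01%, 27.1% and 34.1%, and libraries 8 and 10 at 0% and 2.00%, none of them above the WT range. In a fit of the control pair alone this region was not called (adjusted p = 0.0540, limma).

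**Figure D3:**
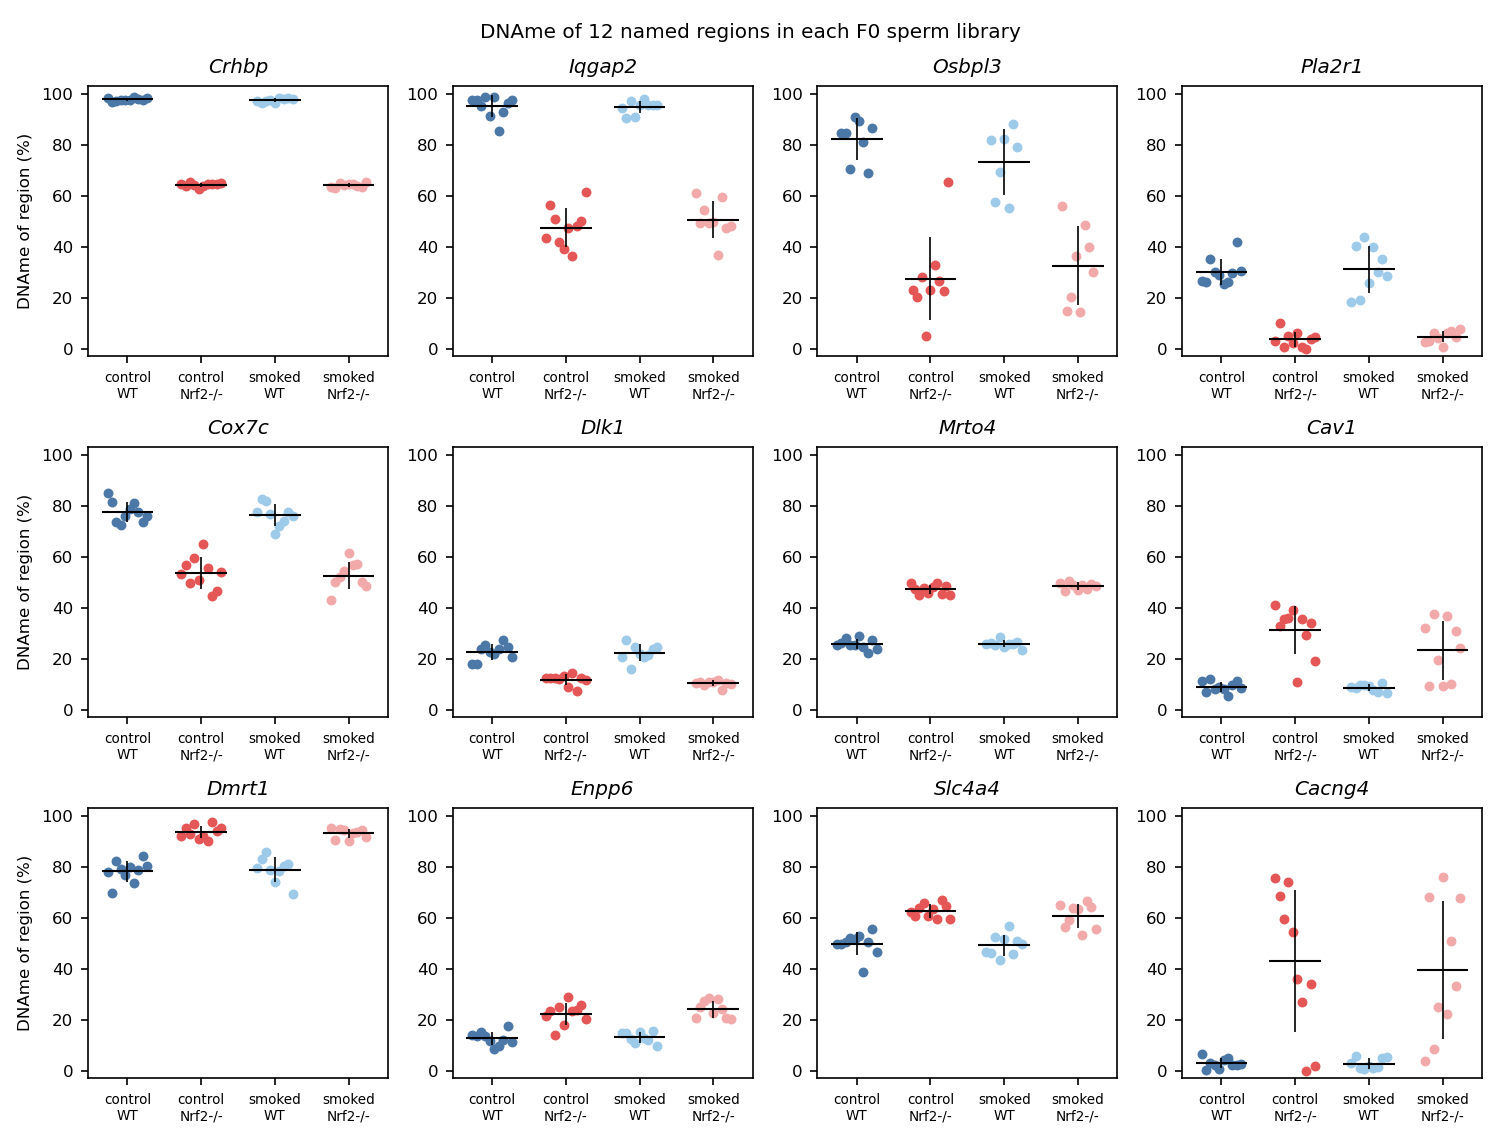
DNAme (%) of 12 named regions in each F0 sperm library (points), with group mean and SD (black lines), for control WT (n up to 10), control Nrf2-/- (n up to 10), smoked WT (n up to 9) and smoked Nrf2-/- sperm (n up to 9). The genotypes differ in the same direction in the control and smoked pairs, narrowly spread at Crhbp (64.2% against 97.8%) and Mrto4 (47.2% against 25.6%) and widely at Cacng4, where Nrf2-/- libraries run from 0% to 75.7%.

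The last 3 regions of the higher group gained less than 10 points. A region assigned to Gm40264, near the start of the carnitine octanoyltransferase gene Crot, went from 6.38% to 12.9%. The region nearest Cetn3, a centrin gene, went from 87.6% to 97.0%. Tcf4, a basic helix-loop-helix transcription factor gene of neural development on chromosome 18, was changed at a promoter. Its 11 cytosines, 328 bp from a start, went from 67.9% to 78.8% (median 72.5%) in control WT to 80.5% to 86.1% (median 82.9%) in control Nrf2-/- sperm, and every one was higher by over 5 points (adjusted p = 1.99e-05, limma).

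Of the 24 called promoter regions 15 were lower and 9 higher. Beside Tcf4, 7 at protein-coding genes that also met the rule of size are named. Stambpl1, a deubiquitinase gene, went from 23.6% ± 5.09 (SD, n = 9) to 35.0% ± 4.28 (SD, n = 9). Myo18a, a myosin gene, went from 24.9% ± 3.61 (SD, n = 10) to 35.5% ± 5.46 (SD, n = 10), and Exoc8, an exocyst subunit gene, from 10.6% ± 3.45 (SD, n = 10) to 17.2% ± 5.25 (SD, n = 10). These and the photoreceptor gene Prph2 (13.2% to 19.02%) and the olfactory receptor gene Olfr239 (72.1% to 82.2%) were higher. The regulator gene Mier1 (15.8% to 2.79%, n = 5 and 6) and the ribosomal protein gene Rpl18, whose region also lies in the sphingosine kinase gene Sphk2 (11.1% to 2.23%), were lower. Adjusted p-values ran from 0.000664 to 0.0145 (limma), and all but Olfr239 were lost in a fit of the control pair alone. With at least 8 libraries required in every group, the Exoc8 region differed by 1.00 point (adjusted p = 0.880, limma).

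The gene lists drawn up around NRF2 biology and germ cells held 0 or 1 called region each, and over all regions 0.374% were called. Among NRF2 and its regulators 0 of 64 regions were called, and among NRF2 target genes 0 of 94; at an unadjusted p below 0.05 (limma) there were 6 and 8, or 9.38% and 8.51%, against 7.83% of all regions. The median differences were -0.0418 and 0.0416 points. Of 43 regions in other antioxidant enzyme genes 1 was called, in Msrb3, which encodes an enzyme that repairs oxidised methionine. It ran from 8.65% to 13.9% (median 10.5%) in control WT and from 14.3% to 21.3% (median 18.2%) in control Nrf2-/- sperm, without overlap (difference 6.64 points, SE 1.27, adjusted p = 0.00146, limma). Of 68 regions in genes that write, read or erase DNAme 0 were called, with 3 at an unadjusted p below 0.05. Of 72 regions in spermatogenesis and sperm genes 1 was called, in an intron of Gfra1, the receptor of spermatogonial stem cells for GDNF. It was at 95.8% ± 4.06 (SD, n = 8) in control WT and 63.4% ± 17.9 (SD, n = 7) in control Nrf2-/- sperm, where libraries ran from 42.9% to 87.3%. Of 54 regions assigned to genes with a maternally methylated imprinted promoter, gene bodies included, 0 were called (3 at an unadjusted p below 0.05), of 13 assigned to genes of paternally methylated loci the Dlk1 region alone, and of 49 at genes of blood, epithelium and Sertoli cells 0 (2 at an unadjusted p below 0.05). The core of the antioxidant response element, TGACNNNGC on either strand, was in the sequence of 16 of the 235 called regions (6.81%) and of 5.74% of all regions.

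In a few places a cytosine had no value in 1 genotype at all, as in Nfe2l2. In total 490 cytosines had a value in every control WT and no control Nrf2-/- library, 302 on chromosome 13, 185 on chromosome 2, 2 on chromosome 12 and 1 on chromosome 10. The reverse held for 255, of which 114 lay on chromosome 13, 70 on chromosome 2 and 54 on chromosome 6. On chromosome 2 they ran from 58143780 to 76423629, a stretch that includes Nfe2l2, on chromosome 13 from 75774682 to 107713320 and on chromosome 6 from 3248921 to 52094287. In the smoked pair and the 3 further WT groups, which recovered after CS, 371 of the 490 and 180 of the 255 had the same pattern. When at least 8 libraries with a value were enough, the 490 became 725 and the 255 became 475. Of the 475, 151 lay on chromosome 13, 148 on chromosome 2, 71 on chromosome 6 and 45 on chromosome 11. Of genes that held some of the 490, Mast4, a kinase gene on chromosome 13, had most (19), and Iqgap2 and Mctp1 had 16 each. Mast4 (15) and Iqgap2 (10) also held the most of the 255 with the reverse pattern. Why these values are missing was not tested.

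A further set of cytosines had values in both genotypes and changed in at least 50% of Nrf2-/- libraries from one end of the scale towards the other; they are called near-complete here. Of 1190666 cytosines with a value in at least 4 libraries of both groups, 86 were at 70% or more in every valued control WT library and at 20% or less in at least 50% of Nrf2-/- libraries; 21 had the mirrored pattern. In 39 of the 86 at least 1 Nrf2-/- library was still at 70% or more. The 86 were on chromosomes 2 (30), 13 (25), 6 (17) and 11 (8), with 6 elsewhere. Of the 83 with values in both smoked groups, 80 had a smoked WT mean of 70% or more, and in 79 the smoked Nrf2-/- mean was lower by over 20 points. Of the 21 with the mirrored pattern, 7 were higher by over 20 points in smoked Nrf2-/- sperm. These 21 lay on 12 chromosomes, 5 of them on chromosome 13 and 4 on chromosome 3. Most of the 86 were thus also lower in the smoked animals. How often other cytosines changed so in the smoked pair was not counted.

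The libraries of the control Nrf2-/- group differed from one another in blocks at these cytosines. The cytosines had been chosen for low values in at least 50% of these libraries, so low medians in many of them follow from the choice. It did not fix which libraries were low. On chromosome 13 (bases 88631689 to 110510579, 21 cytosines) and in the middle of chromosome 2 (58486811 to 79644802, 11 cytosines) the median was 0% in each of the 10 libraries. Single cytosines there still differed between libraries, up to 100% in libraries 6 and 10 on chromosome 2 and in library 10 on chromosome 13. In the distal block of chromosome 2 (169745047 to 173138021, 18 cytosines) libraries 6 and 10 had medians of 100% and 95.9% and the other 8 were at 0%. On chromosome 11 (102260294 to 109414600, 5 cytosines) libraries 8 and 10 were at 100% and 95.8%, libraries 6, 7 and 9 at 33.3%, 40% and 16.7%, and libraries 1 to 5 at 0%. This is the block that holds the Cacng4 region, and the libraries with the lowest DNAme at Cacng4 were those with the highest at these cytosines. On chromosome 6 (50243540 to 53308767, 7 cytosines), the block with Osbpl3 and Creb5, library 10 was at 52.2% and the others at 0%. Of the 84 such cytosines with a value in library 10, 38 were at 70% or more, against 17 of 69 in library 6 and 0 to 6 in the other libraries. Without library 10 the number of called regions was 294.

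**Figure D4:**
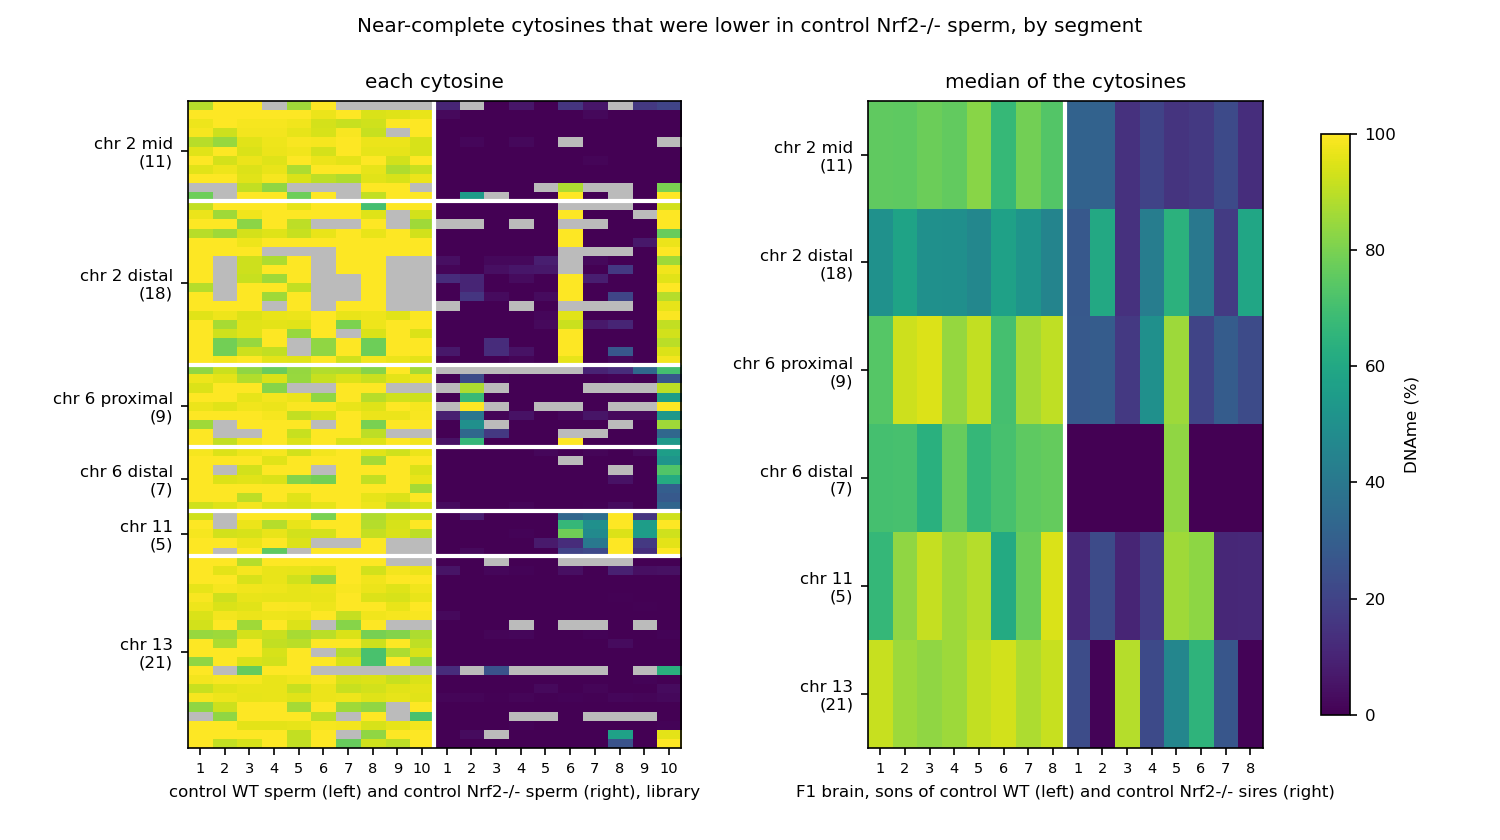
DNAme (%, colour scale) at the near-complete cytosines that were lower in control Nrf2-/- sperm, by chromosomal block (number of cytosines in brackets). Left, each cytosine (row) in each control WT and control Nrf2-/- sperm library (grey, no value); right, the median over the block in each F1 brain library. Control WT libraries are high by the way the cytosines were chosen. The choice also asked for low values in at least 50% of the control Nrf2-/- libraries, so low values in many of those libraries follow from it. The block medians of all control Nrf2-/- libraries are 0% on chromosome 13 and mid chromosome 2, with single cytosines up to 100% in libraries 6 and 10. Libraries 2, 6, 7, 8, 9 and 10 stand apart in at least 1 other block.

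The genotype difference was next read in the animals exposed to CS. The smoked pair shares no library with the control pair, though both pairs enter the same fit. Its facility numbers also follow genotype (4 to 20 in smoked Nrf2-/-, 22 to 67 in smoked WT), and stock again goes with genotype. Neither can be told apart from genotype in this pair. Of the 235 regions called in the control pair, 224 had the same sign in the smoked pair and 173 had it with an unadjusted p below 0.05, against 7.22% of all regions with such a p in either direction. At an adjusted p below 0.05 there were 94, and the smoked pair by itself had 209 called regions (0.333%). Unlike in the control pair, more of these were higher (118) than lower (91) in Nrf2-/- sperm. Of the 235, 0 had the opposite sign with an unadjusted p below 0.05 (limma). The medians were -6.65 points for the lower and 7.503 points for the higher regions, smaller than in the control pair from which they were chosen. Over all regions the median in the smoked pair was 0.0159 points. Crhbp went from 97.4% to 64.1% in the smoked pair, Iqgap2 from 94.8% to 50.6%, Mrto4 from 25.8% to 48.5% and Dlk1 from 22.3% to 10.3%. The promoter regions of Mier1, Myo18a, Exoc8 and Rpl18 had adjusted p-values of 0.553 to 0.702 there (limma). A test of whether the genotype difference itself changed with exposure called 0 of 62831 regions (2650 at an unadjusted p below 0.05, limma), and 47 of the 235 were among the latter. The 235 were chosen by the control difference, which is part of this test, so no conclusion is drawn from the 47.

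**Figure D5:**
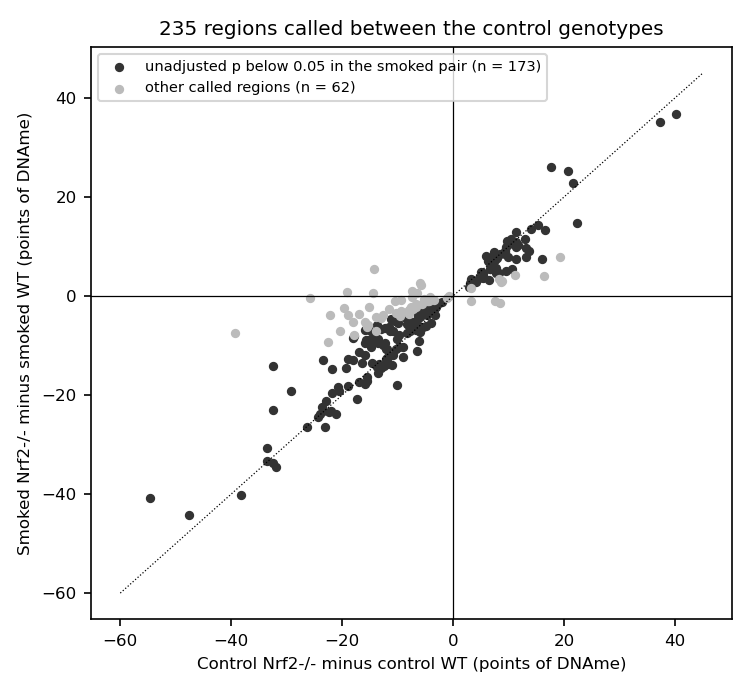
Difference in DNAme (points) between Nrf2-/- and WT sperm in the smoked pair (vertical axis) against the control pair (horizontal axis) for the 235 regions called in the control pair. Dark points (n = 173) had an unadjusted p below 0.05 in the smoked pair and grey points did not; the dotted line marks equal differences, and 224 points have the same sign in both pairs.

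In prefrontal cortex of the sons few of the sperm differences passed the test. Of 62092 regions measured in brain 6 were called, and 234 of the 235 sperm regions were among those measured. Of these, 138 had the same sign in brain. An unadjusted p below 0.05 (limma) in either direction was found for 42 of the 234, against 11.2% of all regions measured. Of the 42, 33 had the same sign as in sperm. The median differences in brain were -0.344 points for the lower and 0.635 points for the higher regions, against 0.416 points over all regions. Iqgap2 was at 77.1% and 78.5% in sons of control WT and control Nrf2-/- sires, Mrto4 at 53.1% and 54.6%, and Dlk1 at 29.2% and 28.3%. The Crhbp region was at 88.2% and 74.8% (unadjusted p = 0.000361, adjusted p = 0.362, limma) and the Sem1 region at 29.97% and 14.05% (adjusted p = 0.0588). Neither passed over all regions. The changed Sem1 cytosine had medians of 63.3% and 0% in sons of control WT and control Nrf2-/- sires. In sons of smoked WT and smoked Nrf2-/- sires its medians were 56.9% and 61.3%.

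The 3 sperm regions that were also called in brain were named after their values were seen, and all lie on chromosome 2, between the ends of the block of missing and near-complete cytosines that includes Nfe2l2. In an intron of Tanc1, a postsynaptic scaffold gene (chr2:59673571-59673685), DNAme went from 97.2% to 73.0% in sperm and from 82.6% to 68.6% in brain (adjusted p = 7.06e-08, limma). It holds 1 near-complete cytosine among 4, at 98.3% and 0.470% in sperm and at 51% and 0% in brain. At an exon of Pde11a, a phosphodiesterase gene (chr2:76158274-76158354), it went from 95.2% to 78.2% in sperm and from 82.0% to 69.5% in brain (adjusted p = 0.000272). Among its 6 cytosines 1 was near-complete, at 95.3% and 0% in sperm and at 76.7% and 0% in brain. In an intron of Osbpl6, an oxysterol-binding protein gene (chr2:76447349-76447413), it went from 44.2% to 31.1% in sperm and from 82.7% to 38.1% in brain (adjusted p = 4.86e-20). Each was lower in both generations. With each of the 8 sons of control WT sires left out in turn, brain had 5 to 7 called regions and these 3 stayed among them.

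The near-complete cytosines were then read in brain. Of the 81 with a value in at least 4 libraries of both groups of sons, 77 were lower in sons of control Nrf2-/- sires and 46 by over 20 points (56.8%). Among all other cytosines that were at 90% or more in control WT sperm, 280 of 283584 (0.0987%) were lower by over 20 points. In sons of smoked sires 76 of 84 were lower and 27 by over 20 points (32.1%), against 0.790% of the other cytosines. The Crhbp cytosine was at 89.2% to 96.1% (median 93.5%) in sons of control WT sires. In sons of control Nrf2-/- sires it was at 45.8% to 94.2% (median 50.3%). In sons of smoked Nrf2-/- sires it was at 38.3% to 96.7% (median 92.4%), against a median of 93.5% in sons of smoked WT sires. Medians per son were taken over every near-complete cytosine of a block. In the mid chromosome 2 block, which holds Nfe2l2 (11 cytosines), they ran from 66.9% to 82.3% in sons of control WT sires and from 13.1% to 31.4% in sons of control Nrf2-/- sires, without overlap. In sons of smoked Nrf2-/- sires they ran from 11.1% to 28.3%. On chromosome 13 (21 cytosines) sons of control WT sires were at 83.3% to 93.1%, while sons of control Nrf2-/- sires ran from 0.816% to 88.9%, 6 of 8 at 45.8% or less. Of the sons of smoked Nrf2-/- sires, 3 were at 40.2% or less and 5 at 79.1% or above. At the chromosome 6 block with Osbpl3 (7 cytosines), 7 sons of control Nrf2-/- sires were at 0% and 1 was at 83.3%. Of the sons of smoked Nrf2-/- sires 2 were at 0%, and sons of control WT sires were at 63.3% to 76.9%. The range among sons of control Nrf2-/- sires was thus wider than among sons of control WT sires on chromosomes 6 and 13.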

How the data were processed

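RRBS libraries were made from F0 sperm and F1 prefrontal cortex. The authors aligned the reads to mm10 with Bismark and deposited a table of the percent methylation of each CpG cytosine in each library. The study's methods call a CpG scoreable above 8 reads in at least 4 replicates, and whether the deposited values had passed this is not given in the sources used here, nor is the Bismark version. Read counts were not analysed here, so the precision of each percentage is unknown. The submitters' column names were matched to the groups of the labels, but not to their replicate numbers, so libraries are numbered by the order of their columns within a group, and 0 columns of values in the tables read were left unused.

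Cytosines with a value in at least 4 libraries of each of the 7 F0 groups were joined when no more than 100 bp apart, and regions of at least 3 cytosines and over 50 bp were kept. A region's value in a library was its mean over covered cytosines (at least 50% of them), adjusted for which were covered, so that a value may fall slightly under 0 or over 100. Group means were fitted over all 67 F0 libraries with limma 3.58.1 (R 4.3.3) using a variance trend, with Benjamini-Hochberg adjustment over all regions and a threshold of 0.05. The brain groups were fitted separately in the same way. Values per library were compared by two-sided permutation with 100000 resamples. Regions were annotated with GENCODE M21, and a promoter is within 1000 bp of a start. The code was tested on simulated data.

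Regions named had to be called and to meet the rule of size, and those within 10 kb of each other counted once. Named were the 12 lower and 10 higher with the smallest adjusted p, up to 8 more at promoters of protein-coding genes (7 were found), those called in the gene lists, and Nfe2l2. A region takes the name of the gene it lies in or of the protein-coding gene with the nearest start. Members and gene lists were chosen with earlier results of these data known. The near-complete cytosines were defined after the data were seen.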

Additional observations from a re-analysis of the deposited data

Results flagged for a closer look

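Of 66 sets of values examined (a group's libraries at a named region, or a measure per library), 6 held a library whose gap to the nearest other was large for the range of its group by Dixon's criterion; chance gives about 1 in 20. In control Nrf2-/- sperm, library 10 had 73.3% at Creb5, where the next was at 64.8% and the lowest at 59.6%, and 65.5% at Osbpl3, where the next was at 32.9% and the lowest at 5.00% (n = 9). In control WT sperm, library 7 had 38.6% at Slc4a4 (next 46.7%, highest 55.5%), library 2 had 15.8% at Myo18a (next 23.1%, highest 28.3%) and library 8 had 18.7% at Prph2 (next 14.6%, lowest 9.95%). The mean distance from the group median was 3.24 points in library 8 of the control Nrf2-/- group (next 2.65, lowest 2.11).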

How the results depend on the processing

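The count of called regions, 235, became 105 in a fit of the control pair alone and 366 with cytosines joined up to 300 bp, and the number of them repeated in the smoked pair, 173, became 87 and 265. In other planned settings the called regions numbered 197 to 257. Without the near-complete cytosines, which was tried with the data known, they numbered 193, with 131 lower and 62 higher. Leaving out 1 library gave 198 to 294 called regions, 150 to 199 repeated in the smoked pair, 3096 to 3586 regions by size, differences in mean DNAme of 0.384 to 1.32 points (2.04 points over all cytosines with a value, p = 0.172, permutation test) and differences in the distance from the group median of 0.0736 to 0.239 points. The 3205 regions by size became 715 at over 10 points, 7235 with joining up to 300 bp and 1348 with at least 8 libraries in every group. The 255 cytosines valued in Nrf2-/- sperm alone became 475 when 8 libraries were enough. The cause was not tested in these cases. Brain had 5 to 7 called regions without each son of control WT sires, tried with the data known. Outside chromosomes 2, 6 and 13 the calls numbered 144, and 123 when adjusted over those chromosomes alone, likewise tried with the data known.

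Of 919 alternative values for the 31 named regions, 909 stayed on the same side of the threshold, 10 lost it and 0 reversed; 23 regions passed in every alternative that could be run. In the control pair alone the adjusted p (limma) was 0.0540 at Cacng4, 0.154 at Stambpl1, 0.135 at Mier1, 0.133 at Myo18a, 0.390 at Exoc8 and 0.0975 at Rpl18, and Prph2 was lost there and on the logit scale (0.268). No paired analysis was possible because the columns carry facility library numbers and not the replicate numbers of the labels. Facility numbers follow genotype, and no read depth limits can be given from percentages alone.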

Other observations

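In F1 brain, 3 further blocks of near-complete cytosines were read, as medians per son over the block. In the proximal block of chromosome 6 (bases 5317914 to 15500412, 9 cytosines), 7 of 8 sons of control Nrf2-/- sires were at 16.7% to 50.0% and 1 was at 85.4%, against 70.5% to 94.9% in sons of control WT sires. Of the sons of smoked Nrf2-/- sires 1 was at 33.3% and 7 were at 81.0% or above, and 1 son of a smoked WT sire was at 45.1%. In the distal block of chromosome 2 (18 cytosines) the groups overlapped, with 14.3% to 64.1% in sons of control Nrf2-/- sires and 45.1% to 58.2% in sons of control WT sires. In the chromosome 11 block, which holds the Cacng4 region (5 cytosines), 6 of 8 sons of control Nrf2-/- sires were at 22.8% or less and 2 at 82.9% or above, against 61.2% to 94.3% in sons of control WT sires. The labels do not link the sperm libraries to the sires of these sons.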
